A study of Homo sapiens with 208 samples.

Results

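AP-1 is a dimeric transcription factor assembled from the FOS and JUN families of basic leucine zipper proteins. FOS proteins bind DNA only with a JUN partner, whereas JUN proteins can also pair with each other. Growth factor signalling through EGFR and the RAS-MAPK cascade induces several of these genes within minutes, so their mRNAs are widely used as readouts of receptor activity. The 7 genes FOS, FOSB, FOSL1, FOSL2, JUN, JUNB and JUND were looked for by the transcript accession of each array probe. Probes of 6 of the 7 genes were found, 10 probes in all among 41000, and these 6 genes were among 16961 with a named probe. JUND was not analysed here.

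The mRNA levels were followed in 2 human lung adenocarcinoma cell lines. PC9 carries an activating EGFR deletion and is sensitive to gefitinib, an inhibitor of the EGFR tyrosine kinase. PC9GRM2 (PC9M2 in the study's text) is 1 gefitinib-resistant line selected from PC9 by long culture in the drug, with MET protein at about the level of PC9 and without the common secondary EGFR mutation, so it stands for 1 selected clone. All cells were starved for 48 h and received no addition (untreated), 0.5 uM gefitinib, EGF (the ligand of EGFR) at 100 ng/ml, or both EGF and gefitinib. RNA was collected at 26 time points from 0 to 24 h, which gave 8 courses of 26 arrays. Each time point of a course was a single array. The differences between courses were therefore tested over the 26 matched time points, and the p-values measure the spread between time points of 1 experiment, not between independent cultures. Neighbouring time points were not independent: the correlation of the gefitinib difference in PC9 between consecutive time points was 0.74 for FOS and had a median of 0.29 over all genes. Levels below are log2 of the quantile-normalized array signal, differences are on the same log2 scale, and each P is limma's, adjusted by Benjamini-Hochberg over all 13263 genes tested, with 0.05 as the threshold.

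Both lines expressed the epithelial genes KRT7, KRT8, KRT18, KRT19, EPCAM and CDH1 above background on every array, while PTPRC, a leukocyte gene, was above background on 1 PC9 array and on no PC9GRM2 array. The lung genes differed among themselves. NAPSA was above background on 103 of 104 PC9 arrays and on 104 PC9GRM2 arrays, whereas NKX2-1, the lung lineage factor, was above background on only 9 and 4 arrays. The 4 arrays of a slide were the 4 treatments of the same line and time. No slide and no scan day was shared between the lines, which were scanned on 8 days (PC9) and 9 days (PC9GRM2). The time points of a course were spread over these days, and the 1 h arrays of PC9GRM2 had a scan day to themselves. Results between lines and over time are also given with scan day as a random block where that ended a call. This block cannot separate the lines from their scan days. A difference between lines therefore cannot be told apart from one between slides or scan days. Each PC9 array also held 221 to 1702 saturated spots and each PC9GRM2 array 0, although no probe of a member was saturated.

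At 0.5 h in PC9GRM2, the arrays labelled EGF and EGF with gefitinib went against their labels. Each array was placed between the untreated and the gefitinib array of its own slide using 13257 genes that are not members, with values below 0 on the untreated side and values above 0 on the gefitinib side. The other 25 EGF arrays of PC9GRM2 lay from -0.82 to -0.09 and the other 25 arrays with both agents from 0.09 to 0.81. In PC9, the EGF arrays lay from -0.83 to -0.07 and the arrays with both agents from 0.04 to 0.72. The PC9GRM2 array labelled EGF at 0.5 h lay at 0.11, among the gefitinib arrays, and the array labelled EGF with gefitinib lay at -0.14, among the untreated arrays. Both arrays were kept under their labels, and the PC9GRM2 tests of the members that rest on them are given with and without the 0.5 h time point.

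**Figure D1:**
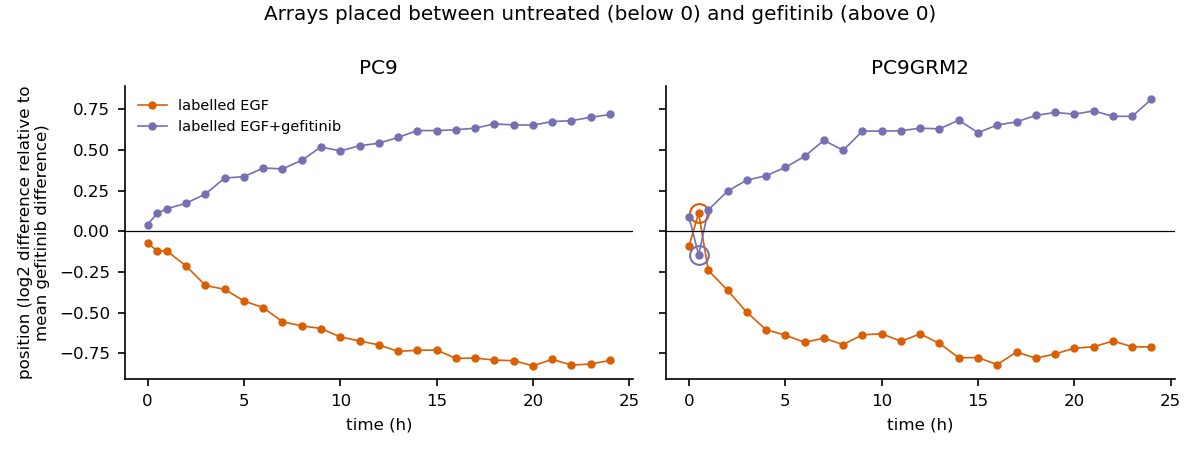
Position of every EGF and EGF with gefitinib array between the untreated array (negative side) and the gefitinib array (positive side) of the same slide, against time in h, computed over 13257 genes without the members. The 2 ringed PC9GRM2 arrays at 0.5 h, at 0.11 and -0.14, are the only ones on the side opposite to the rest of their course.

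The sequences just before the transcription starts show what these genes share upstream, and 3 of them are given because FOS and JUN were lower and FOSL2 was higher on gefitinib arrays of PC9. Each is the 250 bases before the start in RefSeq, build GRCh38.p14: chr14:75278578-75278827 (plus strand) for FOS, chr1:58784048-58784297 (minus strand) for JUN and chr2:28392608-28392857 (plus strand) for FOSL2. Capitals mark TGACG, the core of the cAMP response element (CRE), or its reverse complement CGTCA, TGACATCA in JUN and TATAAA in FOS.
FOS: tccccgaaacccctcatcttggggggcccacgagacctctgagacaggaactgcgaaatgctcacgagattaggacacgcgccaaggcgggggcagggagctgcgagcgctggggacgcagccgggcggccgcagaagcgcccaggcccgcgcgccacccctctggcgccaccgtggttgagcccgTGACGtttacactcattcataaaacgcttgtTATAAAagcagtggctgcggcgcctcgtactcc
JUN: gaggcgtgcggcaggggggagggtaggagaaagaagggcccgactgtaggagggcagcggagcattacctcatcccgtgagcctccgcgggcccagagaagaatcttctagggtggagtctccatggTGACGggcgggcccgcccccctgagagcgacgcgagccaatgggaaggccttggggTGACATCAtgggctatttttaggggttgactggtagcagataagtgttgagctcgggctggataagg
FOSL2: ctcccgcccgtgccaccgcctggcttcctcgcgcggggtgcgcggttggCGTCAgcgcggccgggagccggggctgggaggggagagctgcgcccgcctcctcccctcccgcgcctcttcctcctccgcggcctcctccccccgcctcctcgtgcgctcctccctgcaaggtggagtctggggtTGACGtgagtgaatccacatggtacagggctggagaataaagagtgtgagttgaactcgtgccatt
A window was found for 6 of the 7 genes, FOSL1 being the one without. TGACG, on either strand, was present in the windows of all 5 measured genes that had one (FOS, FOSB, FOSL2, JUN and JUNB) and in 21.2% of 35116 windows of all genes. TATAAA was present in FOS, FOSB and JUNB and in 10.7% of all windows. TGACATCA, which contains no TGACG, occurred in JUN and in 2.37% of all windows. The full CRE (TGACGTCA, which contains TGACG on both strands, 1.65% of windows), the AP-1 site (TGAGTCA, 4.2%) and the CArG box bound by serum response factor (1.16%) were not found in the windows of the 5 measured genes. A match describes the letters in the window only, and a motif not found there may still lie outside the window, which was not searched.

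The first comparison asked how gefitinib alone changed the family in the sensitive line. In PC9, FOS, FOSL1, JUN and JUNB were lower and FOSL2 and FOSB were higher on gefitinib arrays, so that all 6 measured genes passed the test. The background was high: 72.3% of all genes tested passed in this comparison, 35.1% higher and 37.2% lower. The median absolute difference over all genes was 0.44.

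FOS, the founding member and an immediate-early gene, ranged over 26 untreated PC9 arrays from 11.24 to 12.34 with a median of 11.76. On the gefitinib arrays FOS ranged from 8.06 to 10.20 with a median of 8.62. The groups did not overlap, and FOS fell by 2.82 (SE 0.12, 7.06-fold lower, lower at 26 of 26 time points, P = 2.26e-17). The share of all genes without such overlap was not computed, so statements on overlap here and below only describe the members. The fall was already present at 0 h, where FOS stood at 11.96 without and 8.33 with gefitinib. FOSL1 (-2.80), JUN (-1.68) and JUNB (-1.05) were also lower at 0 h, while FOSB (-0.13) and FOSL2 (0.05) differed little. The labelled hours therefore cannot be read as hours since gefitinib was added. The fall of FOS was deepest at early time points: its mean difference was -3.62 at 0.5 to 3 h, and this exceeded the fall at 4 to 24 h by -0.99 (SE 0.27, P = 0.00532). Between these windows 35.4% of all genes differed, and with the early window ended at 2 h the FOS value no longer passed (-0.88, P = 0.054). Within the 8 scan days of PC9, the mean difference of FOS ran from -3.58 to -1.89.

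FOSL1 encodes FRA-1, a FOS protein without a transactivation domain whose gene is itself an AP-1 target. Its untreated PC9 arrays ranged from 7.15 to 9.39 with a median of 8.13, and its gefitinib arrays from 1.88 to 6.16 with a median of 3.81, again without overlap. The difference was -4.35 (SE 0.23, P = 1.97e-15) and every one of 26 time points was lower. Only 10 of the 26 gefitinib arrays were above background for this probe, so the size of its fall is poorly bounded. A brighter FOSL1 probe, above background on all but 2 arrays of the series, fell by 3.96 (SE 0.116). On gefitinib arrays FOSL1 stood at 6.16 at 0 h, 3.98 at 3 h and 1.94 at 24 h, with single arrays in between as high as 5.91 at 5 h and 5.54 at 14 h. Its change over time passed the test (P = 0.0107), as did that of 77.8% of all genes in that course.

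JUN, the principal partner of the FOS proteins, ranged from 12.17 to 14.40 (median 13.49) on untreated PC9 arrays and from 10.80 to 12.41 (median 11.89) on gefitinib arrays. The 2 ranges overlapped slightly, but at each of the 26 matched time points JUN was lower with gefitinib (difference -1.61, SE 0.08, 3.06-fold, P = 2.19e-16). The probe of JUN was spotted 10 times on each array, and the median SD between the spots of an array was 0.04. JUNB, a weaker activator that can oppose JUN, ranged from 8.92 to 11.14 (median 9.94) on untreated arrays and from 7.63 to 10.75 (median 9.45) on gefitinib arrays, with broad overlap. JUNB was lower at 17 of 26 time points (difference -0.42, SE 0.14, P = 0.0068), and the second JUNB probe gave -0.19 (SE 0.08). With the variance inflated for autocorrelation JUNB no longer passed (P = 0.0782). The JUNB difference was larger at 0.5 to 3 h than later, by -1.26 (SE 0.29, P = 0.00171), a difference that was -0.72 (P = 0.204) with the early window ended at 2 h.

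FOSL2 encodes FRA-2, another FOS protein without a transactivation domain, and moved opposite to FOSL1. It ranged from 7.88 to 10.03 (median 8.61) on untreated arrays and from 8.51 to 10.92 (median 9.49) on gefitinib arrays, and it was higher at 25 of 26 time points (difference 0.88, SE 0.10, P = 1.08e-08). All 3 FOSL2 probes were higher, the other two by 0.73 (SE 0.08) and 0.97 (SE 0.09). FOSB, another immediate-early member, was dim and changed little, with ranges of 5.65 to 6.81 (median 6.18) untreated and 5.07 to 6.96 (median 6.39) with gefitinib. Its difference of 0.23 (SE 0.08, P = 0.0127) passed the test, but was 0.05 (P = 0.0829) after another background correction.

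**Figure D2:**
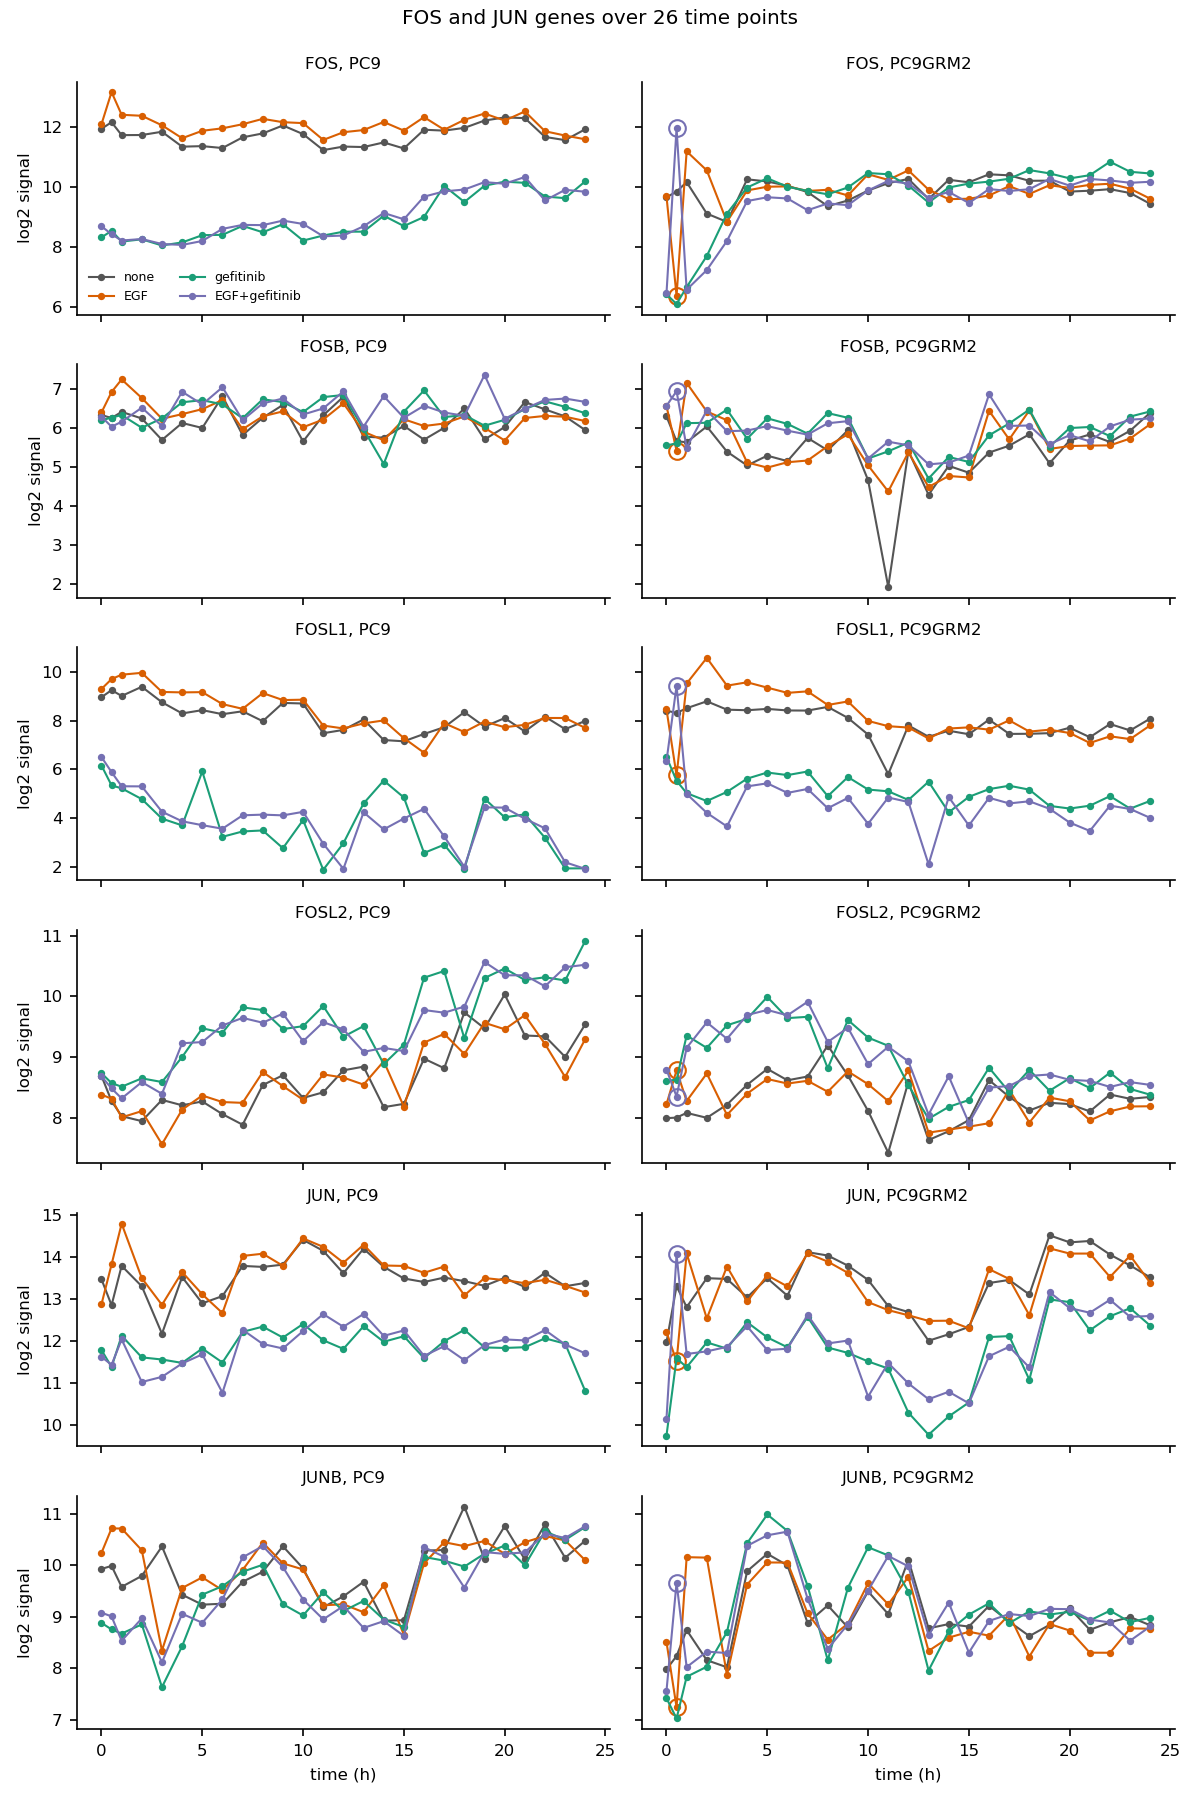
Log2 signal of the 6 measured genes against time in h, with a row of panels per gene, PC9 on the left and PC9GRM2 on the right, 1 array per point, lines joining the 26 arrays of a course and rings marking the PC9GRM2 0.5 h arrays labelled EGF and EGF with gefitinib. FOS on PC9 gefitinib arrays stayed between 8.06 and 10.20, below every untreated PC9 array, while FOS on PC9GRM2 gefitinib arrays rose from 6.10 at 0.5 h to 10.85 at 22 h.

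The same comparison in the resistant line asked which of these changes gefitinib still produced there. In PC9GRM2, FOSL1 and JUN were again lower and FOSL2 and FOSB again higher, and these 4 of 6 genes passed the test, against 66.7% of all genes (32.6% higher and 34.2% lower). FOS and JUNB did not pass over the whole course (FOS -0.27, SE 0.24, P = 0.337; JUNB 0.08, SE 0.12, P = 0.586).

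The FOS average hid a large change with time. FOS on untreated PC9GRM2 arrays ranged from 8.84 to 10.43 with a median of 9.91. On gefitinib arrays it ranged from 6.10 to 10.85 with a median of 10.09, spanning the untreated range on both sides. With gefitinib, FOS stood at 6.42 at 0 h, 6.10 at 0.5 h, 6.66 at 1 h, 7.70 at 2 h, 9.12 at 3 h and 9.99 at 4 h, and reached its highest level of 10.85 at 22 h. The difference from the untreated array of the same time was therefore -3.76 at 0.5 h, averaged -2.98 over 0 to 2 h, and averaged 0.23 over 4 to 24 h, with the highest value, 1.02, at 24 h. Over the early window of 0.5 to 3 h the FOS difference averaged -2.10 (SE 0.68, higher at 1 of 4 time points). That early value by itself did not pass limma's test (P = 0.126). The early minus later difference of FOS was -2.33 (SE 0.40, P = 0.000263), and 20.1% of all genes passed that test in PC9GRM2. The FOS course with gefitinib had a fitted range of 4.51 (P = 1.01e-11 for change over time), where all 6 members and 63.7% of all genes changed over time and the median range over all genes was 0.81. Time overlapped with scan day in these courses. With scan day as a random block the change of FOS still passed (P = 4.52e-09), while FOSB (P = 0.0731) and FOSL1 (P = 0.315) did not.

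FOSL1 ranged in PC9GRM2 from 5.81 to 8.79 (median 7.95) untreated and from 4.24 to 6.51 (median 5.09) with gefitinib. The ranges met only through the untreated array at 11 h, at 5.81, which had the lowest correlation with the rest of its course, and leaving out 11 h changed the call of none of the 66 member results that use this course. FOSL1 fell by 2.77 (SE 0.13, lower at 26 of 26 time points, P = 3.16e-16), with 22 of 26 gefitinib arrays above background, and its brighter probe fell by 2.54 (SE 0.09). JUN ranged from 11.97 to 14.51 (median 13.45) untreated and from 9.75 to 12.99 (median 11.85) with gefitinib, and was lower at every one of 26 time points (-1.64, SE 0.08, P = 1.92e-15). FOSL2 was higher at 24 of 26 time points (0.63, SE 0.10, P = 2.82e-06), with medians of 8.77 with gefitinib and 8.23 without. FOSB was also higher at 24 of 26 (0.51, SE 0.13, P = 0.00161), with medians of 5.92 and 5.48. JUNB had overlapping ranges of 7.98 to 10.22 untreated and 7.02 to 10.99 with gefitinib.

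**Figure D3:**
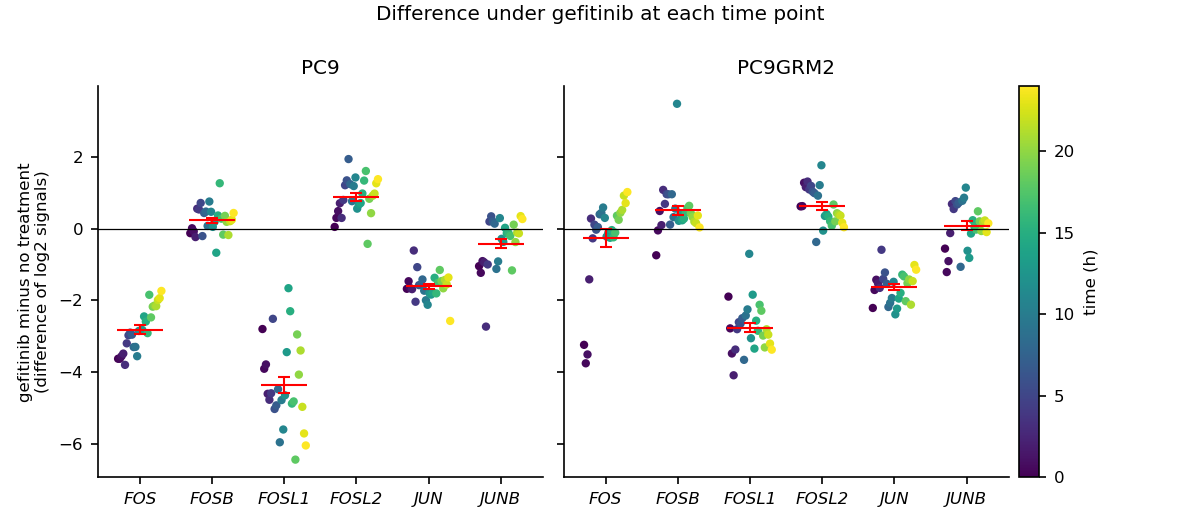
Differences in log2 signal between the gefitinib and the untreated array of the same time point for the 6 genes in PC9 and PC9GRM2, 1 point per time point coloured by time in h, with a red bar at the mean and its SE (n = 26). FOS points of PC9GRM2 run from -3.76 at 0.5 h to 1.02 at 24 h, whereas all FOS points of PC9 are below 0.

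Whether gefitinib acted differently in the 2 lines was tested as the difference of the 2 differences. FOS differed most among the members: the gefitinib difference was 2.55 higher in PC9GRM2 than in PC9 (SE 0.20, higher at 25 of 26 time points, P = 2.42e-10). FOSL1 differed by 1.58 (SE 0.27, P = 3.78e-05) and JUNB by 0.50 (SE 0.18, P = 0.0287), while 34.0% of all genes passed this test. The value of JUNB did not pass with the courses unpaired (P = 0.264) or with the variance inflated for autocorrelation (P = 0.114). FOSB (0.28, SE 0.14, P = 0.115) and FOSL2 (-0.25, SE 0.14, P = 0.182) did not pass. JUN gave -0.03 (SE 0.12, P = 0.886).

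Levels in the untreated cells also differed between lines. FOS was lower in PC9GRM2 by 1.85 (SE 0.11, 3.60-fold, P = 8.05e-15), and its highest PC9GRM2 array, at 10.43, was below the lowest PC9 array, at 11.24. JUNB (-0.93, SE 0.18, P = 4.07e-05), FOSB (-0.81, SE 0.16, P = 7.24e-05), FOSL2 (-0.42, SE 0.14, P = 0.0075) and FOSL1 (-0.27, SE 0.11, P = 0.0259) were lower too, so that 5 of 6 genes passed, all lower, beside 68.1% of all genes in either direction and 37.0% of all genes lower. JUN did not pass (-0.16, SE 0.17, P = 0.421). With scan day as a random block, FOS (P = 4.63e-12), FOSB (P = 0.00725) and JUNB (P = 3.00e-04) passed, and FOSL2 (P = 0.0541) and FOSL1 (P = 0.164) did not.

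With gefitinib the order between the lines turned for FOS and FOSL1. FOS was higher in PC9GRM2 by 0.71 (SE 0.22, at 22 of 26 time points, P = 0.00609) and FOSL1 by 1.31 (SE 0.24, at 21 of 26, P = 2.14e-05). FOSB (-0.53, SE 0.10, P = 2.79e-05) and FOSL2 (-0.67, SE 0.19, P = 0.00246) were lower, JUNB (-0.44, SE 0.22, P = 0.0783) and JUN (-0.19, SE 0.20, P = 0.425) did not pass, and 64.9% of all genes passed. FOS went the other way at 4 time points, those from 0 to 2 h, with 8.55 in PC9 and 6.10 in PC9GRM2 at 0.5 h. With scan day as a random block, FOS (P = 0.0516) and FOSL2 (P = 0.0616) no longer passed.

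EGF alone was added to ask how ligand changed the family in cells with an active mutant receptor. In PC9, FOS rose by 0.36 (SE 0.06, 1.28-fold, higher at 24 of 26 time points, P = 1.94e-05), from a range of 11.24 to 12.34 (median 11.76) to one of 11.58 to 13.18 (median 12.11). It was the only member to pass, and 25.6% of all genes passed. With only time points 3 h apart, FOS did not pass (0.26, P = 0.138). FOSL1 just missed the threshold (0.24, SE 0.09, P = 0.0518), and its brighter probe passed (0.27, SE 0.08, P = 0.00914).

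The EGF difference in PC9 was larger at 0.5 to 3 h than at 4 to 24 h for 2 of the 6 genes, FOSB (0.60, SE 0.13, P = 0.0194) and JUN (0.65, SE 0.13, P = 0.00986), compared with 0.792% of all genes. FOS (0.32, P = 0.404), FOSL1 (0.41, P = 0.567), JUNB (0.08) and FOSL2 (-0.16, P = 0.866) did not pass this test, and with the early window ended at 2 h neither FOSB nor JUN passed. At 0.5 h FOS reached 13.18 with EGF against 12.18 without, at 1 h JUN reached 14.79 against 13.79, and at 1 h FOSB reached 7.24 against 6.41. Over the 4 time points from 0.5 to 3 h, the means were 0.64 for FOS, 0.64 for FOSB, 0.58 for FOSL1 and 0.71 for JUN, each higher at 4 of 4 time points, and 0.08 for JUNB and -0.14 for FOSL2. No member passed limma's test in this window of 4, where 4 members had an unadjusted p under 0.05 and 0 of 13263 genes passed. A window of 4 time points in which 0 genes passed cannot show that these differences are absent. JUNB at 3 h stood at 10.37 on the untreated array and at 8.34 with EGF, the lowest of the PC9 EGF arrays (median 10.07). The other 2 arrays of that slide, both with gefitinib, gave 7.63 and 8.11. The JUNB difference at 3 h thus rests on single arrays, and its cause was not tested.

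In PC9GRM2, no member passed limma's test of EGF against untreated over the 26 time points, 0 members had an unadjusted p under 0.05, and the paired t-test called none, while 9.13% of all genes passed. Without the 0.5 h arrays, FOSL1 passed (0.39, P = 0.0453) and the background was 11.6%. FOSL1 stood at 10.57 with EGF and 8.79 without at 2 h, which was its highest value with EGF. At 1 h FOS stood at 11.20 against 10.17 and FOSB at 7.15 against 5.63, and at 2 h JUNB stood at 10.15 against 8.16. Over the 3 time points from 1 to 3 h, the means were 0.83 for FOS, 0.90 for FOSB, 1.26 for FOSL1 and 1.09 for JUNB. JUN averaged only 0.21 (from -0.96 to 1.28) and FOSL2 0.25. None of these means was past the threshold (2 with an unadjusted p under 0.05 by limma). Against 4 to 24 h, JUNB passed without the 0.5 h arrays (1.28, SE 0.25, P = 0.0184, background 0.430%) and did not pass with them (0.76, SE 0.29, P = 0.312, background 0.317%). The EGF effect differed between the lines for no member by limma, with or without the 0.5 h arrays (1 member with an unadjusted p under 0.05 in each case, none by the paired t-test, while 1.33% of all genes passed with them and 1.37% without).

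**Figure D4:**
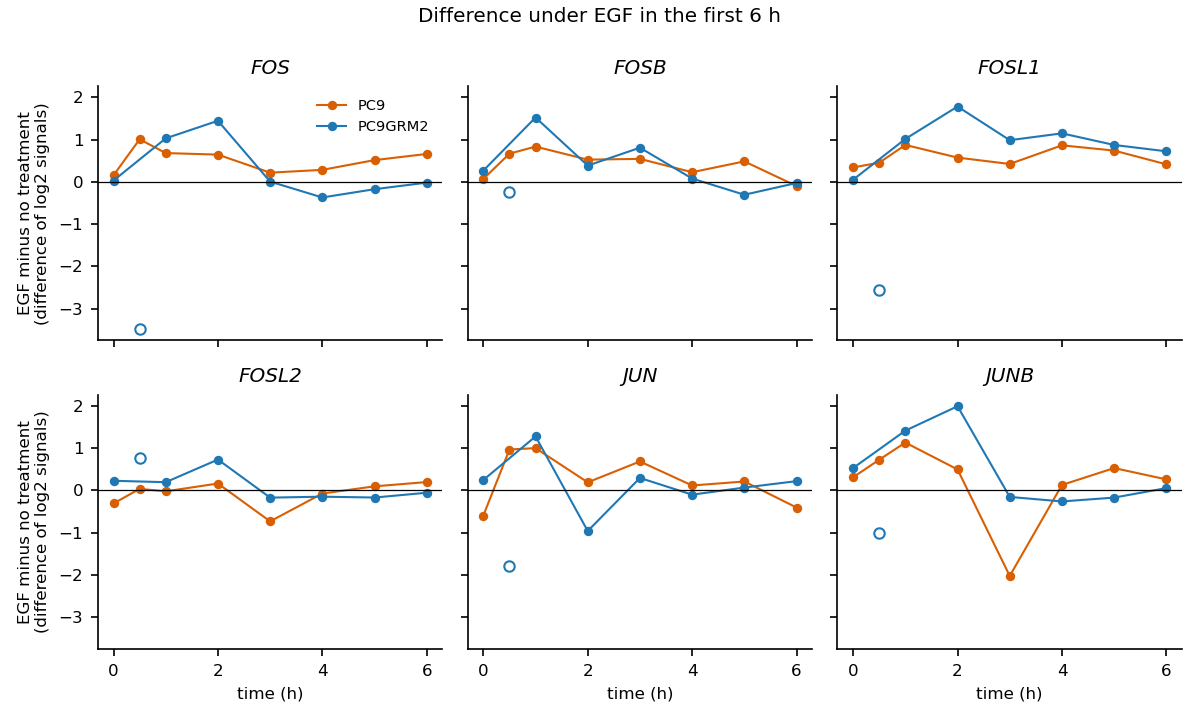
Difference in log2 signal between the EGF and the untreated array of the same time point for the 6 genes (1 panel each) over the first hours (time in h) in both lines, 1 point per time point, with the PC9GRM2 difference at 0.5 h drawn open and left off the line. In PC9GRM2, the open FOS point rests on levels of 6.38 on the array labelled EGF and 9.86 on the untreated array, whereas FOS at 1 h stood at 11.20 with EGF and 10.17 without.

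At 0.5 h in PC9GRM2 the members lay on the same sides as the other genes. The array labelled EGF gave 6.38 for FOS, 5.75 for FOSL1 and 11.52 for JUN, beside 6.10, 5.53 and 11.59 on the gefitinib array. The array labelled EGF with gefitinib gave 11.98 for FOS, 9.43 for FOSL1 and 14.06 for JUN, beside 9.86, 8.32 and 13.30 on the untreated array. Members were not used to place these arrays.

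Adding gefitinib to EGF was compared with EGF alone. In PC9, all 6 genes passed, beside 78.9% of all genes. FOS on the arrays with both agents ranged from 8.07 to 10.34 (median 8.76), below every EGF array, and fell by 3.08 (SE 0.15, P = 2.78e-16). FOSL1 ranged from 1.92 to 6.51 (median 4.05), below the lowest EGF array at 6.68, and fell by 4.49 (SE 0.18, P = 3.73e-18), with 9 of 26 arrays above background. JUN fell by 1.77 (SE 0.08, P = 4.27e-17), JUNB by 0.40 (SE 0.12, P = 0.00378), while FOSL2 (0.82, SE 0.08, P = 1.72e-10) and FOSB (0.23, SE 0.10, P = 0.0309) were higher. FOSB changed with time: the mean difference was -0.60 at 0.5 to 3 h, and the early minus later difference was -1.01 (SE 0.19, P = 0.000137, background 44.3%).

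In PC9GRM2, the arrays with both agents were lower than the EGF arrays for FOSL1 (-3.50, SE 0.33, P = 2.55e-10) and JUN (-1.36, SE 0.17, P = 7.04e-08) and higher for FOSL2 (0.62, SE 0.08, P = 1.45e-07) and FOSB (0.35, SE 0.11, P = 0.00725), 4 of 6 genes beside 74.5% of all genes. FOS did not pass (-0.32, SE 0.32, P = 0.369). Without the 0.5 h arrays, 75.4% of all genes passed and FOS passed too (-0.56, P = 0.0364), FOSL1 gave -3.78, JUN -1.52, FOSL2 0.66 and FOSB 0.30, all past the threshold. Over 1 to 3 h without 0.5 h, FOS was lower by a mean of 2.87 and over 4 to 24 h by 0.10. The early minus later difference of FOS was then -2.76 (SE 0.40, P = 3.12e-05, background 33.8%), against -0.65 (SE 0.86, P = 0.591, background 35.9%) with the 0.5 h arrays. The change of FOS over time on arrays with both agents likewise had a fitted range of 3.98 (P = 4.51e-10) without and of 2.37 (P = 0.0507) with the 0.5 h array, in a course where 67.7% of all genes passed. With both the 0.5 h array and scan day as a random block its P was 0.466.

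Between lines, the difference made by gefitinib in the presence of EGF was higher in PC9GRM2 for FOS (2.76, SE 0.34, P = 1.75e-07), FOSL1 (0.99, SE 0.34, P = 0.0159) and JUNB (0.57, SE 0.18, P = 0.00915), beside 48.7% of all genes. Without 0.5 h, the values were 2.45 for FOS, 0.73 for FOSL1 and 0.42 for JUNB and all 3 passed, beside 49.5%. On EGF arrays, the FOS difference between lines was -2.26 (SE 0.19, P = 1.71e-11), lower in PC9GRM2 at 26 of 26 time points. FOSB (-0.73), FOSL2 (-0.38), JUN (-0.39) and JUNB (-1.01) also passed, all lower, beside 69.8% of all genes in either direction and 37.0% of all genes lower. Without 0.5 h the values were -2.08 for FOS, -0.69 for FOSB, -0.41 for FOSL2 and -0.91 for JUNB, all past the threshold, and JUN no longer passed (-0.31, P = 0.0853, background 69.0%). With scan day as a random block, FOS, FOSB and JUNB passed among the EGF arrays, and FOSB alone among those with both agents. On the arrays with both agents, FOS (0.49, P = 0.0381) and FOSL1 (0.76, P = 0.0092) were higher and FOSB (-0.61) and FOSL2 (-0.57) lower in PC9GRM2, beside 67.7%. Without 0.5 h, FOSL1 (0.64), FOSB (-0.67) and FOSL2 (-0.59) still passed, FOS did not (0.37, P = 0.0733), JUNB did (-0.49, P = 0.0427), and the background was 66.8%.

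The effect of EGF was also compared in cells given gefitinib. In PC9, no member passed limma's test (0 with an unadjusted p under 0.05 and none by the paired t-test), and 0.0452% of all genes passed. FOS gave 0.10 (SE 0.05, P = 0.429) where EGF without gefitinib gave 0.36, and the difference between these 2 effects passed for FOS (-0.26, SE 0.07, P = 0.0106, background 13.0%). That difference did not pass with the courses unpaired (P = 1.00) or with the variance inflated for autocorrelation (P = 0.0573). In PC9GRM2, no member passed over 26 time points by limma (1 with an unadjusted p under 0.05, none by the paired t-test, background 3.21%). Without 0.5 h, FOS (-0.36, P = 0.000109) and FOSL1 (-0.63, P = 0.00674) were lower with both agents than with gefitinib alone, and 7.19% of all genes passed. The difference between the EGF effects with and without gefitinib in PC9GRM2 passed for no member with the 0.5 h arrays (1 with an unadjusted p under 0.05 by limma, background 10.1%). Without them it passed for FOS (-0.43, SE 0.10, P = 0.0036) and FOSL1 (-1.02, SE 0.18, P = 0.000353), beside 16.0%. Between lines, the EGF effect under gefitinib passed for no member with the 0.5 h arrays (1 with an unadjusted p under 0.05, background 1.47%), and without them for FOS alone (-0.46, SE 0.07, P = 0.000529, background 3.03%). All of these contrasts share arrays: each gefitinib or EGF course served as one side of several comparisons.

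Ordered by mean level, FOS ran from PC9 with EGF (12.11) and untreated PC9 (11.75) through the 4 PC9GRM2 courses (9.90 untreated, 9.84 EGF, 9.64 gefitinib, 9.52 both) to PC9 with both agents (9.03) and with gefitinib (8.93). Neighbours differed at 3 of 7 steps, and the 4 PC9GRM2 courses did not differ from their neighbours within that line. Without 0.5 h in all courses, the PC9GRM2 means of FOS were 9.98 with EGF, 9.91 untreated, 9.78 with gefitinib and 9.42 with both, and the courses with gefitinib and with both differed (0.36, P = 0.000109), while PC9GRM2 and PC9 with both agents did not. For FOSL1 the 4 courses without gefitinib (8.41 to 7.90) stood above the PC9GRM2 gefitinib courses (5.13 and 4.67) and these above those of PC9 (3.92 and 3.82), with 2 of 7 steps past the threshold and 4 of 7 without 0.5 h. JUN showed 1 such step, between the courses without gefitinib (13.62 to 13.24) and those with it (11.88 to 11.69), also without 0.5 h. Over the 6 genes, 11 of 42 neighbouring pairs differed, and 13 without 0.5 h. At the 3 FOS steps that passed with all time points, 25.6%, 68.1% and 67.7% of all genes passed. This share was not computed for every neighbouring pair, so the counts describe the members alone.

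The genes around the family were described by 3 lists, with counts of members that passed. Of 22 textbook AP-1 target genes, 19 were tested. With gefitinib in PC9, 14 were lower and 4 higher, beside 37.2% lower and 35.1% higher over all genes, with a median difference of -0.53 beside -0.02 over all genes. In PC9GRM2, 11 were lower and 3 higher, beside 34.2% and 32.6% over all genes, with a median of -0.23 beside -0.01. HBEGF, which encodes an EGFR ligand, fell by 3.20 in PC9 and 2.10 in PC9GRM2. PLAUR, the urokinase receptor, fell by 2.67 and 1.20, and LIF, a cytokine of the IL-6 family, by 2.06 and 1.26, with only 9 and 12 of 26 gefitinib arrays above background. CCND1, the G1 cyclin D1, fell by 1.80 and 0.77. MMP1, an interstitial collagenase, fell by 1.34 and 1.02 with gefitinib, where 14 and 12 of 26 arrays were above background, and was higher with EGF by 1.89 in PC9 and 1.24 in PC9GRM2. Each of these 5 genes passed the test in both lines, and the falls of LIF and MMP1 are poorly bounded.

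CXCL8, a neutrophil chemokine on the same list, was not above background on any of the 26 gefitinib arrays of either line. In PC9 it was at least 5.03-fold lower with gefitinib (P = 1.40e-12), and at least 10.3-fold lower with both agents than with EGF. These bounds set the mean of the brighter course against the lowest signal well above background. In PC9GRM2, where 7 of 26 untreated arrays measured it, no fold is given.

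Of 22 kinases and factors upstream of FOS and JUN, 21 were tested. With gefitinib in PC9, 13 were lower and 2 higher (median -0.28), and in PC9GRM2, 11 lower and 5 higher (median -0.20), read against the same shares over all genes (37.2% lower and 35.1% higher in PC9, 34.2% and 32.6% in PC9GRM2). ELK4 (-1.46 in PC9, -0.79 in PC9GRM2) and ELK3 (-1.44 and -0.51), ternary complex factors that bind with serum response factor, were lower. MAPK10, a JUN kinase, was higher (1.75 and 1.26). With EGF in PC9, 7 of the 21 were higher and 2 lower, beside 11.3% higher and 14.3% lower over all genes. Of 20 dimer partners and related bZIP genes, 19 were tested, and 6 were lower and 5 higher with gefitinib in PC9 (median -0.10), and 4 lower and 6 higher in PC9GRM2 (median 0.07). These counts were near or below the shares over all genes. MAFF, a small MAF protein, fell by 1.39 and 0.72. ATF3, a stress-induced bZIP repressor, fell by 1.02 in PC9. In PC9GRM2 it was above background on 7 untreated and 4 gefitinib arrays, and its difference was -0.40 (P = 0.108).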

How the data were processed

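Agilent 44K arrays, labelled in 1 colour with Cy3, were run by the authors on the 8 courses of 26 samples. The deposited intensity values are Feature Extraction processed signals (version 10.5.1.1 per the file headers), with local background subtracted and no normalization between arrays. The number of arrays, not depth, limits the precision. A deposited table of quantile-normalized intensities served as an alternative.

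Signals of non-control spots were quantile normalized, floored at 1 and log2 transformed in R 4.3.3, and outlier spots (0.263%) were removed. Each gene was read from its most variable probe. A gene was tested if well above background on at least 13 of 26 arrays of 1 course, which kept 13263 genes and left out 3698. Differences at matched time points were tested with limma 3.58.1 and Benjamini-Hochberg adjustment. Courses were paired by time point, since the labels give the time. Within a line the treatments at that time also shared a slide, whereas courses of different lines were paired by the time label alone. Change over time was tested with natural splines of 4 df, and an early window (0.5 to 3 h) was compared with 4 to 24 h. Each kind of test (differences, differences of differences, windows and splines) was checked on simulated data for 1 comparison or course. Promoter windows were searched in Python 3.11.15.

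Genes were named from RefSeq by accession. All measured members were described, and from each other list the genes with an absolute gefitinib or EGF difference of at least 1 were named, at most 6 a list, with the 3 genes most correlated with each member. The members and lists were chosen with earlier results of these data known. Alternatives covered background correction, normalization, floor, filter, probe choice, pairing, autocorrelation, scan day, time points, windows and splines, and those without 0.5 h and without 11 h were added after seeing the data.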

Additional observations from a re-analysis of the deposited data

Results flagged for a closer look

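Differences between the lines or between time windows were tested directly, and those that passed are repeated here as values. Of 36 tests of a difference between 2 effects, 7 passed. The gefitinib difference of PC9GRM2 minus that of PC9 was 2.55 for FOS, 1.58 for FOSL1 and 0.50 for JUNB. In the presence of EGF the same quantity was 2.76 for FOS, 0.99 for FOSL1 and 0.57 for JUNB. In PC9, the EGF effect on FOS with gefitinib minus that without was -0.26. Of all genes, 34.0%, 48.7% and 13.0% passed these tests, in the order given.

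Of 48 tests of 0.5 to 3 h against 4 to 24 h, 10 passed. For gefitinib against untreated, the early minus later value was -0.99 for FOS and -1.26 for JUNB in PC9 and -2.33 for FOS in PC9GRM2. For EGF against untreated in PC9, it was 0.60 for FOSB and 0.65 for JUN. For EGF with gefitinib against EGF in PC9, it was -1.42 for FOS, -1.01 for FOSB, -0.46 for FOSL2, -0.65 for JUN and -1.18 for JUNB. Of all genes, 35.4% passed this test for gefitinib in PC9 and 20.1% in PC9GRM2. For EGF in PC9 the share was 0.792%, and for EGF with gefitinib against EGF in PC9 it was 44.3%. The windows held 4 and 21 time points of single arrays, and the part of scan day in the early values was not tested.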

How the results depend on the processing

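Values of the single members were recomputed in 2532 combinations of result and alternative, of which 2350 kept direction and side of the threshold, 124 lost the call, 55 gained one and 3 reversed. The reversals concerned the dim FOSL1 probe, early against later: with normexp background correction it gave -1.15 for EGF with gefitinib against EGF in PC9 (0.08 as reported) and -0.86 for gefitinib against untreated in PC9 (0.17), and without 0.5 h it gave -1.94 for EGF with gefitinib against EGF in PC9GRM2 (0.37). The cause was not tested. Counts of members called were recomputed 424 times, and 376 stayed within 1.5 times.

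The other counts moved as follows. Taking the courses unpaired, with no replicate block, kept 100 of 108 member results and lost 8 calls: it gave 0 in place of 1 for the EGF effect with against without gefitinib in PC9 and 1 in place of 3 for the gefitinib effect with EGF between lines. Time points 3 h apart gave 0 and 1 for the same tests, 0 for EGF in PC9, 1 for EGF with gefitinib against gefitinib in PC9GRM2, and, between lines, 3 untreated, 1 with gefitinib, 3 with EGF and 1 with both. Inflating the variance for autocorrelation gave 0 for the EGF effect with against without gefitinib in PC9, and 3, 2, 3 and 2 between lines in that order. Scan day as a random block gave 3, 2, 3 and 1 between lines, 2 for EGF in PC9, and for change over time 2 with EGF in PC9 and 1 each for untreated, EGF and both in PC9GRM2. The one-sided test for higher levels in PC9GRM2 gave 0, 2, 0 and 2 by its construction. For EGF in PC9, 2 members passed in place of 1 with the filter on all 26 arrays, the floor of 16, the mean of all probes, normexp and the brightest probe, and normexp also gave 2 for the EGF effect with against without gefitinib there. Ending the early window at 2 h gave 0 for early against later with EGF and with gefitinib in PC9, 2 with gefitinib in PC9GRM2 and 1 for EGF with gefitinib against EGF in PC9GRM2. For early against later with gefitinib in PC9GRM2, the mean of all probes and normexp gave 3 each. Without a filter on dim genes, 3 members in place of 5 passed early for EGF with gefitinib against EGF in PC9. Shares over all genes were not computed for the alternatives in this paragraph, so its counts show only how the calls of members moved.

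Leaving out 0.5 h, an alternative chosen after seeing the data, moved the following counts with PC9GRM2 from 0, with the share over all genes in brackets. It gave 1 for EGF (11.6%), 2 for EGF with gefitinib against gefitinib (7.19%) and 2 for the EGF effect with against without gefitinib (16.0%). Between lines it gave 1 for the EGF effect with gefitinib (3.03%). In the early window it gave 2 for EGF with gefitinib against EGF, for which the share is not given here. Early against later, it gave 4 for that contrast (33.8%) and 1 for EGF (0.430%). Signal over background limits FOSL1 with gefitinib in PC9 (10 of 26 arrays above background).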

Other observations

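Over all arrays, the genes whose log2 signal was most like that of each member, by Pearson correlation, are given as a description: the arrays share slides, lines and treatments, so no p is given. For FOS these were ZFP36 (r = 0.80), ERRFI1 (0.79) and SPRY2 (0.78). ZFP36 encodes an mRNA decay factor, and ERRFI1 and SPRY2 encode feedback inhibitors of EGFR and RAS-MAPK signalling. For FOSL1 they were TUBB2A (0.91), G0S2 (0.90) and FJX1 (0.90). For FOSL2 they were GATA2 (0.91), NUMA1 (0.89) and RETREG2 (0.88), and for JUN POP1 (0.84), POLR1G (0.84) and FOXN2 (0.83). JUNB was closest to ARHGEF2 (0.81), SEC24C (0.80) and LUZP1 (0.79), and FOSB to ALKBH7 (0.72), H2AC19 (0.71) and MEPCE (0.70).

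Among the members themselves, FOS and JUN correlated at 0.60 over all arrays and at 0.27 once each course's mean was removed. FOS and JUNB correlated at 0.65 and FOSL2 and JUNB at 0.62 within courses. FOS and FOSL1, both lower with gefitinib in PC9, correlated at 0.56 over all arrays and at -0.03 within courses.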
